A study of Mus musculus with 6 samples.

Results

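The barcodes described here are droplets with at least 500 unique molecular identifiers (UMIs, each counting 1 captured RNA molecule) of which more than 10% came from the 13 protein-coding genes of the mitochondrial genome, whose symbols begin with mt-. They were 9096 of the 40523 deposited barcodes and are called mitochondria-rich, and the other 31427 are called low-mitochondria. The share of mt- UMIs chose them, so that share, the UMI totals that enter it and the number of members are given as descriptions with no test. Cells were taken from the colon of wild-type mice by removing epithelium with EDTA, digesting the rest with Liberase TL and DNase I and sorting by flow cytometry for CD45, a surface protein of blood-derived cells. Pseudo germ-free (pGF) mice received antibiotics for 4 weeks before and then during dextran sulfate sodium (DSS) treatment, which damages the colon epithelium, and specific pathogen free (SPF) mice received DSS without them. Each arm was sampled at days 0, 2 and 7 of DSS, with 1 library for each arm and day. Day 0 mice had no DSS, so the pGF mice of that day had antibiotics alone and the SPF mice were untreated controls. The strain, the age and the number of mice in each library are not given in the sources used here. Differences between arms or days therefore have no replicate check, whereas mitochondria-rich and low-mitochondria barcodes can be set against each other within each of 6 libraries.

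Mitochondria keep their own genome, and its messenger RNAs are made and held inside the organelle. Most other messenger RNAs lie in the cytosol, and a few long non-coding RNAs, Malat1 and Neat1 among them, stay in the nucleus. A droplet can therefore have a high mitochondrial share because it holds many mt- molecules or because it holds few others, and a limit on this share is a common filter in single-cell work. The absorptive colonocytes and the mucus-secreting goblet cells of the colon epithelium are rich in mitochondria, and they do not carry CD45.

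The libraries held between 23335071 and 52772901 UMIs. Mitochondria-rich barcodes made up 28.1%, 19.3% and 6.41% of the barcodes of pGF mice at days 0, 2 and 7 (504, 1796 and 449 barcodes), and 21.98%, 61.1% and 8.05% of those of SPF mice (672, 4739 and 936 barcodes). Exact 95% binomial bounds, which cover counting error only, were 26.1% to 30.3%, 18.5% to 20.2% and 5.85% to 7.01% in pGF and 20.5% to 23.5%, 60.03% to 62.2% and 7.56% to 8.56% in SPF mice. The SPF library of day 2 thus supplied more of them than the other 5 libraries together. In both arms the day 7 library had the lowest share. Together the mitochondria-rich barcodes held 8.69% of all UMIs and 63.6% of all mt- UMIs. Among all barcodes, 859 barcode sequences occurred in 2 libraries and 11 in 3, and among mitochondria-rich barcodes 38 occurred in 2.

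The mitochondrial shares formed a broad shoulder above 10% and a second peak near 90%. Of all mitochondria-rich barcodes 3749 (41.2%) had more than 80% mt- UMIs, and these held a median of 109 nuclear UMIs, meaning UMIs of all other genes. The share over 80% was 31.5%, 24.5% and 47.0% in pGF mice at days 0, 2 and 7, against 24.3%, 49.8% and 44.7% in SPF mice. Just inside the limit, at 10 to 11%, lay 278 barcodes, and just outside it, at 9 to 10%, lay 364. Their classes from nuclear transcripts were close, with 38.1% and 36.0% epithelial-like and 10.4% and 7.97% T or NK-like.

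**Figure D1:**
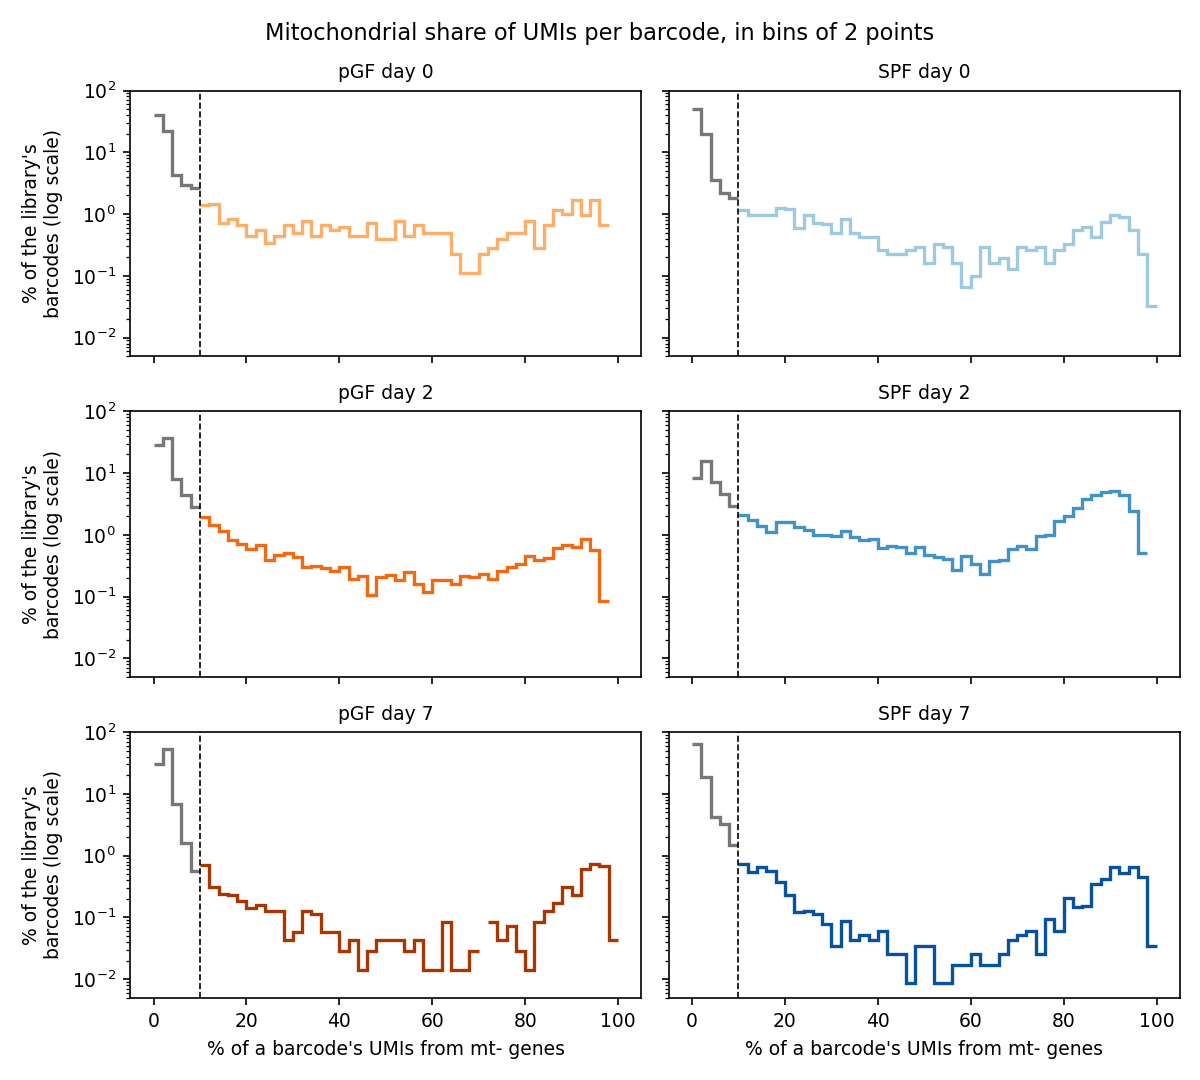
Share of each library's barcodes (y axis, log scale) in bins of 2 percentage points of the mitochondrial share of UMIs (x axis), with pGF libraries on the left, SPF libraries on the right and days 0, 2 and 7 from top to bottom. The dashed line marks the 10% limit, barcodes below it are drawn in grey, and empty bins are not drawn. Every library has a second rise near 90%, and it is highest in the SPF library of day 2, where 49.8% of mitochondria-rich barcodes lie over 80%.

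To ask which cells the mitochondria-rich barcodes resembled, all barcodes with at least 200 nuclear UMIs were clustered together on nuclear genes alone, and clusters were named from marker genes as "-like" classes. Of the mitochondria-rich barcodes 5543 could be classed in this way, and the other 3553 (39.1%) had fewer nuclear UMIs. Of those classed, 3738 (67.4%) were epithelial-like, 379 plasma-like, 369 monocyte or macrophage-like and 259 T or NK-like, and 570 fell in unnamed clusters. Epithelial-like barcodes were the most frequent class among mitochondria-rich barcodes in 4 of the libraries, the exceptions being the SPF libraries of day 0, where plasma-like barcodes led, and day 7, where monocyte or macrophage-like barcodes led.

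In pGF mice, epithelial-like barcodes were 39.5%, 76.9% and 46.5% of classed mitochondria-rich barcodes at days 0, 2 and 7, against 8.54%, 16.3% and 1.34% of low-mitochondria barcodes. In SPF mice they were 34.5%, 86.0% and 24.0% of mitochondria-rich barcodes, against 5.36%, 27.1% and 0.627% of low-mitochondria barcodes. Exact 95% bounds for the mitochondria-rich shares were 34.4% to 44.9%, 74.6% to 78.98% and 40.3% to 52.8% in pGF and 30.5% to 38.7%, 84.5% to 87.3% and 20.6% to 27.8% in SPF mice. The share was thus higher in the mitochondria-rich set of every library, and highest at day 2 in both arms. The log2 ratio of the shares, with 0.5 added to each number of barcodes, averaged 3.19 ± 1.58 (SD, n = 6 libraries; higher in 6 of 6; exact two-sided sign-flip permutation p = 0.03125, the smallest that 6 pairs allow). T or NK-like barcodes went the other way, with a mean log2 ratio of -2.98 ± 1.19, as did ILC2-like barcodes with -1.73 ± 1.04, both lower in 6 of 6 libraries (exact permutation p = 0.03125 each, n = 6). ILC2 are tissue-resident innate lymphocytes that make type 2 cytokines, and only 20 mitochondria-rich barcodes resembled them. After Benjamini-Hochberg adjustment over the 5 classes compared, these 3 exact permutation tests gave p = 0.0521, so none passed 0.05. The class shares of a set divide the same total, so a higher epithelial-like share lowers others, and these 3 are not separate findings. Plasma-like barcodes had a mean log2 ratio of -0.89 ± 0.96 (lower in 5 of 6 libraries, exact permutation adjusted p = 0.0781). Monocyte or macrophage-like barcodes had -0.47 ± 1.27 (lower in 3 of 6, exact permutation adjusted p = 0.438), and with a finer clustering (Leiden resolution 2) this mean turned to 0.86.

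**Figure D2:**
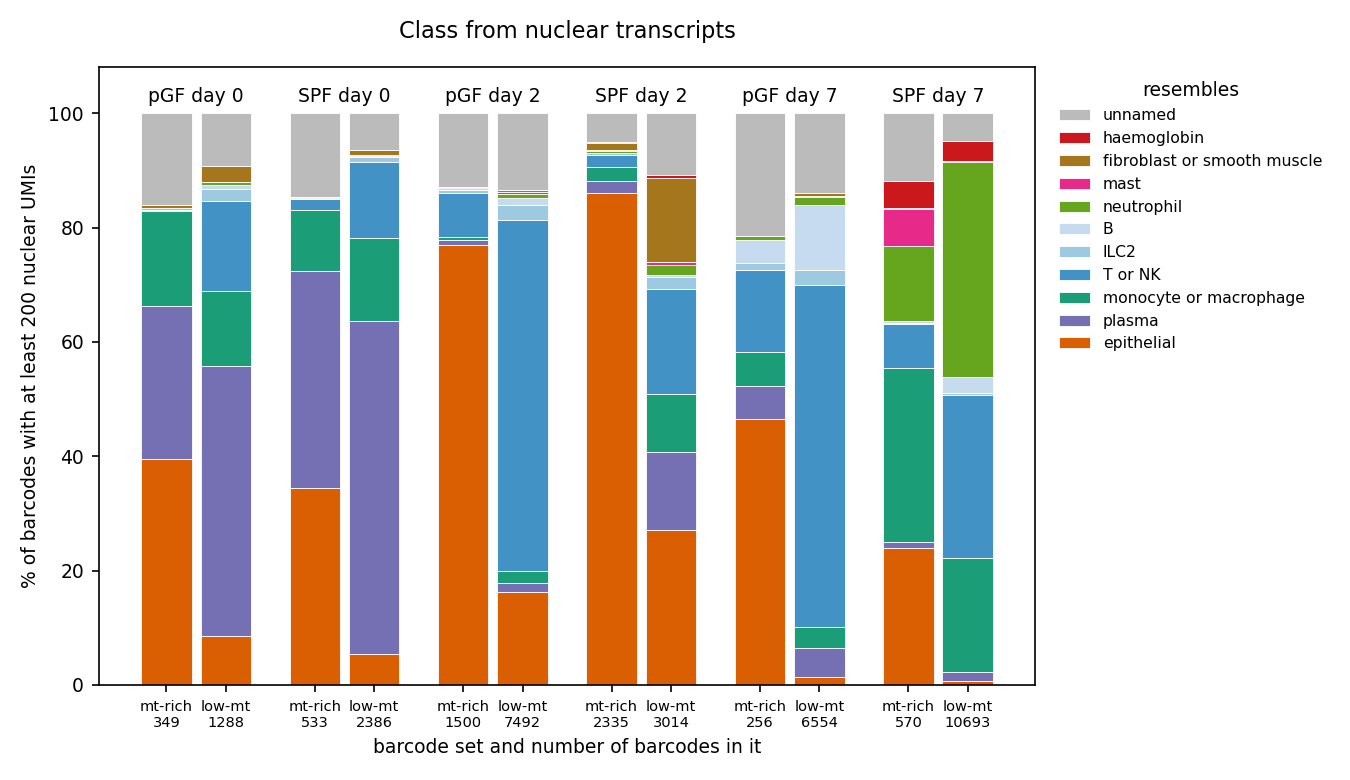
Class composition (% of barcodes with at least 200 nuclear UMIs, y axis) of mitochondria-rich and low-mitochondria barcodes side by side in each library, with the number of barcodes under each bar. Epithelial-like barcodes take between 24.0% and 86.0% of each mitochondria-rich bar and between 0.627% and 27.1% of each low-mitochondria bar.

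Read by class, 55.6%, 48.6% and 57.5% of the epithelial-like barcodes of pGF mice at days 0, 2 and 7 were mitochondria-rich, and 59.0%, 71.0% and 67.2% of those of SPF mice. Among T or NK-like barcodes the range over the libraries was 0.493% to 8.44%, with the highest value in the SPF library of day 2. Plasma-like barcodes ranged from 2.82% to 13.3% and monocyte or macrophage-like barcodes from 4.32% to 25.4%. A limit of 10% therefore set apart about as many epithelial-like barcodes as it kept, or more, in each library, and few T or NK-like ones.

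Single markers showed the same order when every barcode was thinned to 200 nuclear UMIs, which leaves out the 3553 shallower mitochondria-rich barcodes. These markers are among those that named the clusters, so they are no separate check on the classes. Krt8, a keratin of simple epithelia, was detected in 23.5%, 39.2% and 27.3% of mitochondria-rich barcodes of pGF mice at days 0, 2 and 7, against 5.28%, 9.24% and 0.977% of low-mitochondria barcodes. In SPF mice the values were 19.5%, 48.0% and 14.7%, against 3.73%, 18.6% and 0.739%. In T or NK-like barcodes, which should lack Krt8, the thinned share was at most 1.96% in mitochondria-rich and 0.980% in low-mitochondria barcodes of any library, with median depths of 755 to 2317 and 2388 to 5542 nuclear UMIs before thinning. The low-mitochondria Krt8 values of both day 7 libraries thus lie below the highest background of any library. Without thinning, Krt8 was seen in 77.2% of mitochondria-rich and 38.4% of low-mitochondria barcodes of the SPF day 2 library. Epcam, an adhesion molecule of epithelium, was detected after thinning in 14.9%, 23.7% and 12.9% of mitochondria-rich barcodes of pGF mice, against 4.04%, 7.11% and 1.22% of low-mitochondria ones, and in 10.1%, 19.8% and 4.56% against 3.44%, 9.49% and 0.888% in SPF mice. The thinned share of Epcam in T or NK-like barcodes reached 5.17% in the mitochondria-rich and 2.05% in the low-mitochondria set of the pGF day 2 library. The low-mitochondria values of both day 7 libraries and the mitochondria-rich value of SPF day 7 lie below these background values, which come from another library.

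Cd3e, a chain of the T cell receptor complex, ran in the opposite direction. It was detected in 0%, 4.80% and 3.13% of thinned mitochondria-rich barcodes of pGF mice at days 0, 2 and 7, against 4.58%, 13.2% and 12.8% of low-mitochondria ones, and in 0.375%, 0.814% and 5.09% against 3.81%, 3.52% and 9.34% in SPF mice. In epithelial-like barcodes, which should lack Cd3e, the thinned share reached 2.34% in the mitochondria-rich and 2.99% in the low-mitochondria set of any library. The mitochondria-rich Cd3e values of pGF day 0 and of SPF days 0 and 2 thus lie below the highest background of any library. Jchain, which joins the chains of secreted IgA, was frequent in both sets at day 0, at 40.1% against 52.1% in pGF and 46.0% against 63.96% in SPF mice. Jchain was also found in 7.94% of the 315 low-mitochondria T or NK-like barcodes of the SPF day 0 library, so low shares of it lie at the background. Lyz2, lysozyme of myeloid cells, reached 9.74% against 11.6% at day 0 in pGF and 9.47% against 15.8% at day 7 in SPF mice, with at most 3.92% in T or NK-like barcodes of any library. Col3a1, a fibrillar collagen of fibroblasts, stayed at or under 1.499% in every mitochondria-rich set and reached 10.1% in the low-mitochondria set of the SPF day 2 library, where 443 low-mitochondria and 32 mitochondria-rich barcodes were fibroblast or smooth muscle-like.

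The epithelial-like barcodes fell in 6 clusters, and different clusters held most of them in the 2 sets. Among mitochondria-rich barcodes, 38.4% lay in a cluster led by the goblet genes Muc2, Tff3, Zg16, Fcgbp and Clca1, whose mitochondria-rich members had a median of 73.9% mt- UMIs and 348 nuclear UMIs. A further 30.8% lay in a cluster led by the colonocyte genes Phgr1, Saa1, Guca2a and Car4 (median 32.1% mt- UMIs, 2386 nuclear UMIs), and 24.4% in a cluster led by Sh2d6, Dclk1 and Trpm5 beside Krt18 and Krt8 (median 24.0%, 1193 nuclear UMIs). Dclk1 and Trpm5, a kinase and a cation channel, are known from tuft cells, the chemosensory cells of the epithelium. In low-mitochondria barcodes, 67.7% lay instead in a cluster led by Krt8, Pigr, Dmbt1 and Car1, which held 6.15% of the mitochondria-rich ones. Each of the 3 clusters that held most mitochondria-rich barcodes was itself largely mitochondria-rich, with 1435 of 1674, 1153 of 1277 and 913 of 1152 barcodes.

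The make-up of the mitochondria-rich epithelial-like barcodes differed among libraries. The Sh2d6, Dclk1 and Trpm5 cluster took 0.725%, 27.6% and 13.4% of them in pGF mice at days 0, 2 and 7, and 3.26%, 27.3% and 17.5% in SPF mice. It was thus rare at day 0 in both arms, with 1 and 6 barcodes, and took a similar share at day 2 in both. In low-mitochondria epithelial-like barcodes the same cluster took 0%, 13.1% and 21.6% in pGF and 0%, 5.50% and 22.4% in SPF mice. The Phgr1 and Car4 cluster took 59.4%, 30.5% and 36.1% of the mitochondria-rich ones in pGF and 40.2%, 28.8% and 16.8% in SPF mice. The larger goblet-led cluster, of 1674 barcodes, took 29.0%, 37.6% and 37.0% in pGF and 45.1%, 37.3% and 62.8% in SPF mice. With 1 library for each arm and day, these differences were not tested.

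The sort marker itself was scarcer in epithelial-like barcodes than in T or NK-like or monocyte or macrophage-like ones. Ptprc, the gene of CD45, stood at 113 UMIs per 1000000 nuclear UMIs (CPM) over all mitochondria-rich epithelial-like barcodes and at 28.0 CPM over low-mitochondria ones. In T or NK-like barcodes it stood at 1767 and 1227 CPM, and in monocyte or macrophage-like barcodes at 970.2 and 537 CPM. Plasma-like barcodes, also resembling blood-derived cells, had 248 and 65.1 CPM, with a Ptprc UMI in 14.25% and 57.0% of them. A low Ptprc level was therefore not particular to epithelial-like barcodes. Ptprc was present in 13.2% of mitochondria-rich and 17.2% of low-mitochondria epithelial-like barcodes, at median depths of 1142 and 19432 nuclear UMIs, and in 81.9% and 92.8% of T or NK-like ones. Its level in mitochondria-rich epithelial-like barcodes was 4.22, 203 and 99.9 CPM in pGF mice at days 0, 2 and 7 and 7.72, 93.4 and 79.8 CPM in SPF mice. The level of Ptprc was not taken by epithelial cluster. In fibroblast or smooth muscle-like barcodes, which lack CD45, Ptprc stood at 35.3 and 41.0 CPM in the 2 sets.

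Immune-like classes filled most of what was left. Plasma-like barcodes, resembling the antibody-secreting end stage of B cells, were 26.6% and 37.9% of classed mitochondria-rich barcodes in the pGF and SPF libraries of day 0, against 47.2% and 58.2% of low-mitochondria barcodes, and at most 5.86% at later days. Of the 379 mitochondria-rich plasma-like barcodes 355 lay in 1 cluster of low depth led by Jchain, Mzb1, Txndc5 and Mef2c, in which 38.5% of barcodes were mitochondria-rich. Monocyte or macrophage-like barcodes were 16.6%, 0.467% and 5.86% of classed mitochondria-rich barcodes in pGF mice at days 0, 2 and 7, against 13.2%, 2.07% and 3.68% of low-mitochondria ones. In SPF mice they were 10.7%, 2.48% and 30.5%, against 14.7%, 10.0% and 19.9%.

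Neutrophil-like barcodes were 13.2% of the classed mitochondria-rich and 37.7% of the low-mitochondria barcodes of the SPF day 7 library, and under 1% of the mitochondria-rich barcodes of each other library. Neutrophils are short-lived and poor in RNA, and 1.83% of the neutrophil-like barcodes of that library were mitochondria-rich. Mast-like barcodes, named from the proteases Mcpt1, Mcpt2, Cma1 and Cpa3, stood apart in the same library, where 36 of 55 (65.5%) were mitochondria-rich, against 3 of 17 in the SPF day 2 library, 1 of 25 in the pGF day 2 library and none of 15 in the pGF day 7 library. Over all libraries these mast-like mitochondria-rich barcodes had a median of 533 nuclear UMIs, against 2266 in low-mitochondria ones. Among the 570 unnamed mitochondria-rich barcodes, 397 lay in a cluster led by H2-Ab1, H2-Aa, Cd74, Retnla and Il1b, genes of antigen presentation and myeloid cells, and 141 in a cluster of low depth led by Ikzf2 and Txk, which are lymphocyte genes.

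The 3553 mitochondria-rich barcodes with under 200 nuclear UMIs had a median of 89.3% mt- UMIs and 106 nuclear UMIs, and 2404 of them came from the SPF day 2 library. Scored on markers alone, with at least 2 marker UMIs required, 51.3% were epithelial, 20.1% plasma and 4.45% neutrophil by their leading class, and 21.0% had none. In the day 0 libraries, plasma markers led in 67.7% of 155 barcodes of pGF and 66.2% of 139 barcodes of SPF mice. In the SPF day 7 library neutrophil markers led in 42.6% of 366 barcodes. Summed over such barcodes, epithelial markers took between 1.47% and 2.75% of nuclear UMIs in each library, against 0.0488% to 1.46% in low-mitochondria barcodes. Plasma markers took less than in low-mitochondria barcodes, at 6.01% against 10.7% in pGF day 0 and 5.61% against 11.3% in SPF day 0. So did neutrophil markers in SPF day 7, at 2.82% against 9.91%. Their leading place is therefore no excess over the rest of those libraries.

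**Figure D3:**
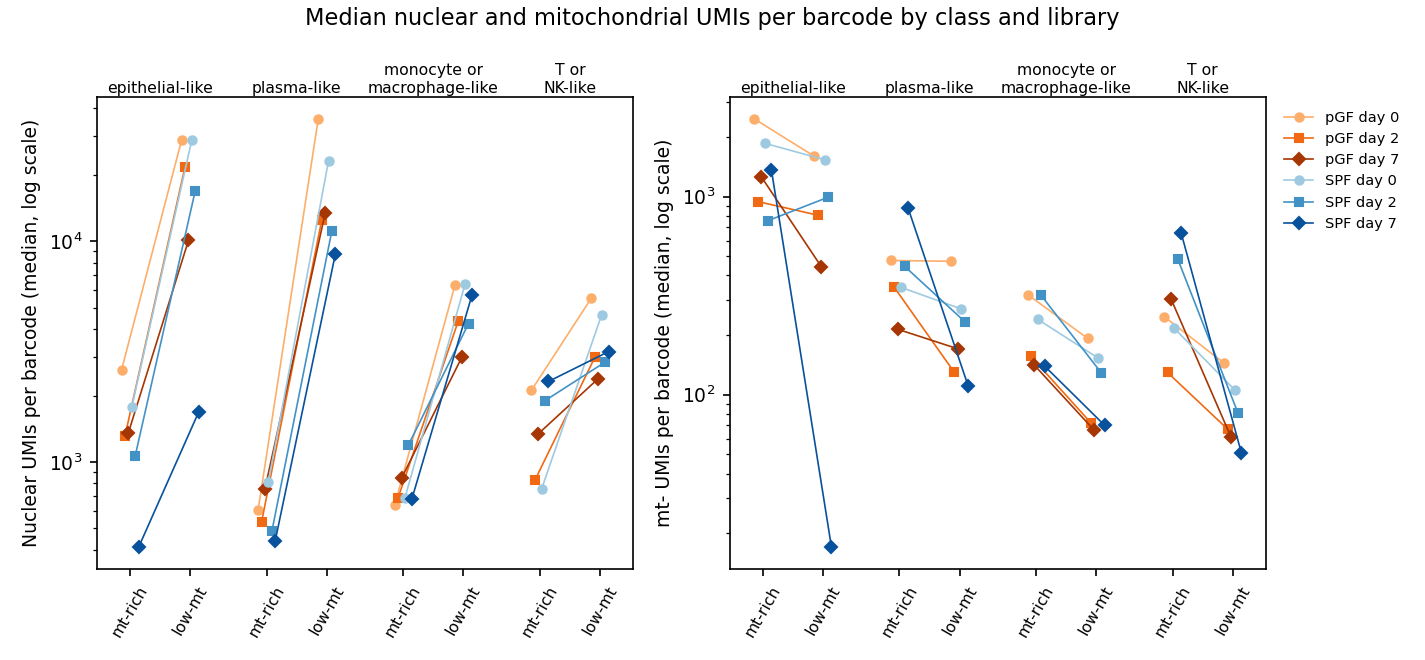
Median nuclear UMIs (left) and median mt- UMIs (right) per barcode, on log scales, for 4 classes in the mitochondria-rich and low-mitochondria sets, with 1 line for each library. Epithelial-like and plasma-like barcodes differ mainly in nuclear UMIs, except the epithelial-like ones of SPF day 7, and in T or NK-like barcodes the larger gap lies in mt- UMIs in 3 libraries and in nuclear UMIs in 3. Among those 3, pGF day 0 has 1 mitochondria-rich T or NK-like barcode and SPF day 0 has 10.

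The 2 sets differed in different terms of the ratio according to class. Mitochondria-rich epithelial-like barcodes had medians of 930.0 mt- UMIs and 1142 nuclear UMIs, against 884 mt- UMIs and 19432 nuclear UMIs in low-mitochondria ones. Plasma-like barcodes had 390.0 mt- and 691 nuclear UMIs, against 260.0 and 19908. Over all libraries both classes thus differed far more in nuclear than in mt- molecules. T or NK-like barcodes had 324 mt- and 1264 nuclear UMIs, against 62.0 and 2835, over all libraries. Their libraries differed, with the larger gap in mt- molecules in pGF day 7 and SPF days 2 and 7 and in nuclear ones in the other 3, as in pGF day 2, with 129.5 mt- and 825 nuclear UMIs, against 67.0 and 2983. The mitochondria-rich T or NK-like medians rest on 1 barcode in pGF day 0 and on 10 in SPF day 0. Monocyte or macrophage-like barcodes had 191 mt- and 708 nuclear UMIs, against 82.0 and 5237, and differed in both terms. The SPF day 7 library departed from this for epithelial-like barcodes, with medians of 1367 mt- and 411 nuclear UMIs in its mitochondria-rich ones, against 17.0 and 1686 in its 67 low-mitochondria ones. The limit of 10% itself requires the ratio to differ, so these medians describe how it differed.

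Malat1, which is retained in the nucleus, took a larger part of nuclear UMIs in the mitochondria-rich barcodes that could be classed. Over barcodes with at least 200 nuclear UMIs, Malat1 stood at 31582, 39026 and 24410 CPM in mitochondria-rich barcodes of pGF mice at days 0, 2 and 7, against 4084, 7008 and 6863 CPM in low-mitochondria ones. In SPF mice it stood at 46840, 44314 and 21076 CPM, against 4402, 7736 and 5251 CPM. The sets did not overlap over the 6 libraries. Malat1 did not climb steadily with the mitochondrial share, in bands that also include the barcodes with under 200 nuclear UMIs. Over all libraries it stood at 29927 CPM at 10 to 20% mt- UMIs, 52673 at 20 to 40%, 51383 at 40 to 60%, 32457 at 60 to 80% and 10722 over 80%. The share of epithelial-like barcodes among those classed did climb over all libraries together, at 48.2%, 70.2%, 72.5%, 86.0% and 97.0% over the same bands. In each library it was between 92.3% and 100% over 80% and lowest at 10 to 20%, at 9.31% to 73.1%, but the steps between were uneven, as in pGF day 0 with 30.8%, 39.2%, 33.0%, 38.5% and 100%. Barcodes over 80% were thus nearly all epithelial-like where they could be classed (576 of 3749). In each library the band over 80%, unclassed barcodes included, had the lowest Malat1 level of the 5 bands, between 6223 and 15435 CPM. That level is therefore not one of epithelial-like barcodes alone.

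**Figure D4:**
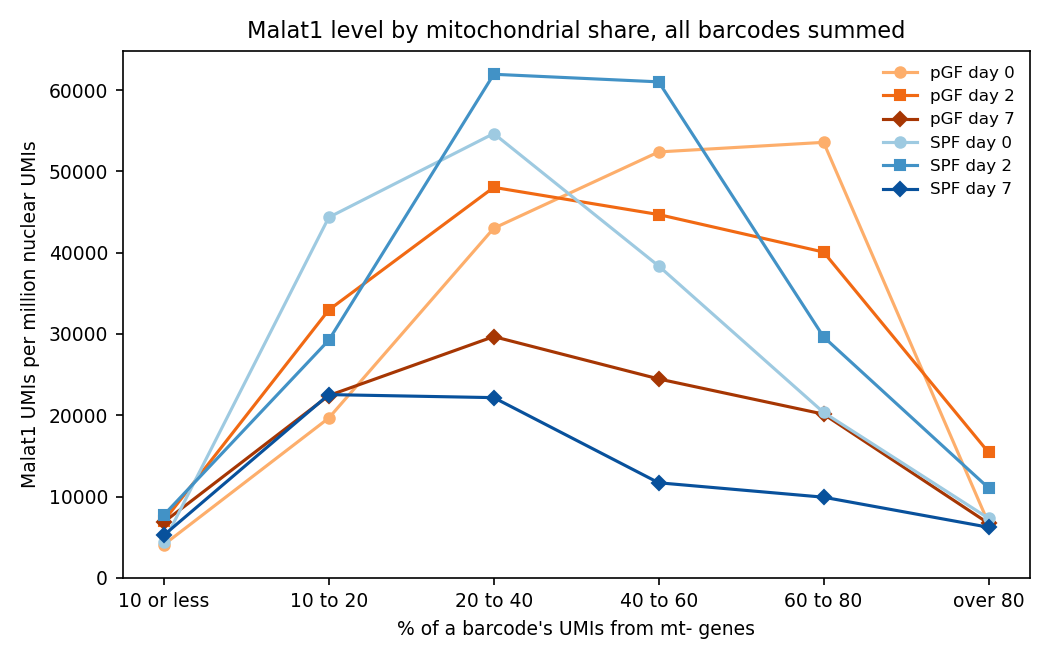
Malat1 CPM of nuclear UMIs, summed over all barcodes of a library (y axis, linear), by the mitochondrial share of the barcode (x axis), with 1 line for each library. Low-mitochondria barcodes stand at 4084 to 7736 in every library, 5 of the 6 lines are highest between 20% and 80%, and each line's lowest mitochondria-rich band is that over 80%, which lies above the low-mitochondria value in all but pGF day 7.

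Within a class, nuclear genes were compared between mitochondria-rich and low-mitochondria barcodes by summing UMIs for each library and set, in libraries with at least 30 barcodes in both sets. A quasi-likelihood test in edgeR took the library as a block, with Benjamini-Hochberg adjustment over all genes tested, so the p-values measure the spread of the difference between libraries that differ in arm and day. In epithelial-like barcodes (6 libraries, 9683 genes tested), 2726 genes (28.2%) were higher and 2527 (26.1%) lower in mitochondria-rich barcodes at an adjusted p under 0.05. These sets also differed in cluster make-up, depth and doublet score as described, with 2.90% to 24.8% of mitochondria-rich and 0% to 38.8% of low-mitochondria epithelial-like barcodes scored as doublets over the libraries. A sum also weighs each barcode by its depth. In the mitochondria-rich set of SPF day 2, the clusters led by Krt8 and Pigr and by Phgr1 gave 2998289 of 4250768 nuclear UMIs. They held 707 of the 2007 barcodes of that set. In pGF day 0 they gave 688912 of 711437 nuclear UMIs from 97 of 138 barcodes. A comparison at matched depth was also made. When both sets were limited to barcodes with 500 to 3000 nuclear UMIs, which left 4 libraries and 1645 genes, edgeR called 0 genes higher and 1 lower (Agr2), with 143 and 206 at an unadjusted p under 0.05. Those 4 libraries were days 2 and 7 of both arms. Their low-mitochondria sets held 111 and 31 barcodes in SPF and 201 and 30 in pGF mice, with 25551 to 286588 nuclear UMIs. In the main fit the low-mitochondria sets held 454872 to 24865379. The loss of calls at matched depth is therefore not read as an effect of depth. The sets of the main fit differ in depth, so the epithelial gene differences below are also differences between shallow and deep barcodes. The part of depth was not separated further.

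Malat1 and Neat1, both nuclear non-coding RNAs, were higher in the mitochondria-rich epithelial-like barcodes of every library. Malat1 stood at 22078, 39991 and 23449 CPM in pGF mice at days 0, 2 and 7 and at 27091, 46164 and 27249 CPM in SPF mice, against 3415.5, 4826 and 6746 CPM and 3105, 6181 and 8286 CPM in low-mitochondria barcodes. The lowest mitochondria-rich value was above the highest low-mitochondria value. The log2 fold change was 2.59 ± 0.21 (SE, edgeR adjusted p = 2.71e-06), and 1.23 (edgeR adjusted p = 0.279) between barcodes of 500 to 3000 nuclear UMIs. Neat1 averaged 1543 ± 169 CPM in mitochondria-rich and 418 ± 87.3 CPM in low-mitochondria barcodes (SD, n = 6; log2 fold change 1.95, edgeR adjusted p = 2.12e-06). Kcnq1ot1, an antisense RNA that silences imprinted genes, was the third nuclear-retained RNA of 6 listed that could be tested, and it was also higher, by 0.996 on the log2 scale (edgeR adjusted p = 0.00256). All 3 were higher, against 28.2% of all genes.

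Messages for the protein-making machinery were lower. The list counts below are to be read against 28.2% of all genes higher and 26.1% lower. Of 89 ribosomal protein genes tested, 83 were lower, 2 higher and 4 not called, with a median log2 fold change of -1.11, against 0.00 over all genes. The 2 higher ones, Rps6kc1 and Rps6kb2, match the symbol rule of the list but are kinase genes. Rpl12, a protein of the large subunit, stood at 298 ± 115 CPM in mitochondria-rich and 899 ± 146 CPM in low-mitochondria barcodes (SD, n = 6; log2 fold change -1.63, edgeR adjusted p = 4.24e-06). Nuclear genes of the respiratory chain, which supply the partners of the mt- proteins, were lower in 34 of 40 cases and higher in none, with a median of -0.58. Ndufa4 was the lowest at -1.42 and Cox4i1 fell by 0.45 on the log2 scale. Genes for mitochondrial transcription and translation were lower in 8 of 15 and higher in 4, among them Tfam, the packaging factor of mitochondrial DNA, at -0.79, and Ppargc1a, a coactivator of mitochondrial genes, at 0.72. The count of higher ones lies near the share of all genes, and nothing is read from it. Heat-shock chaperones were lower in 9 of 11, with Hspe1 and Hspd1, the mitochondrial chaperonins, at -1.65 and -1.51. In barcodes of 500 to 3000 nuclear UMIs the median of 81 ribosomal protein genes was -0.76 and that of 37 respiratory chain genes -0.65, with no gene of either list called, against 0.09 over all genes.

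Genes of epithelial cell types moved apart. Absorptive colonocyte genes were higher in 9 of 14 and lower in 2, against 28.2% and 26.1% of all genes. Aqp8, a water and peroxide channel of surface colonocytes, stood at 479, 458 and 294 CPM in mitochondria-rich barcodes of pGF mice at days 0, 2 and 7 and at 823, 409 and 419 CPM in SPF mice, against 77.3, 31.4 and 37.7 CPM and 90.04, 71.1 and 74.7 CPM in low-mitochondria barcodes. The 2 sets did not overlap for Aqp8 (log2 fold change 3.02 ± 0.18, SE; edgeR adjusted p = 5.15e-07). Car4, a membrane carbonic anhydrase, was higher by 2.25 and Slc26a3, the chloride-bicarbonate exchanger of the colon, by 1.54, whereas Guca2b, the peptide uroguanylin, fell by 0.80 on the log2 scale. The largest log2 fold change among genes named by rule was that of Nlrp9b, an inflammasome gene of intestinal epithelium in mice, at 3.79, with 105 ± 32.2 CPM in mitochondria-rich and 8.82 ± 4.56 CPM in low-mitochondria barcodes (SD, n = 6; edgeR adjusted p = 5.00e-08). Lama3, a laminin chain of epithelial basement membrane, followed with 3.52.

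Agr2, a protein disulfide isomerase that goblet cells need to make mucin, was the lowest of the genes named by rule. It stood at 54.8, 184 and 103 CPM in mitochondria-rich barcodes of pGF mice and at 137, 131 and 153 CPM in SPF mice, against 1157, 1581 and 787 CPM and 1298.5, 1457 and 912 CPM in low-mitochondria ones. Its log2 fold change was -3.27 ± 0.18 (SE, edgeR adjusted p = 4.05e-07), and Agr2 kept it at matched depth, at -3.05 by edgeR with an adjusted p of 0.0174. Of 12 goblet genes 8 were lower and none higher, against 26.1% and 28.2% of all genes, with a median of -1.97. Among the lower ones were Muc2, the main colonic mucin, at -2.08, and the transcription factors Spdef and Atoh1 at -1.85 and -1.84. These values describe sums of UMIs, not numbers of barcodes. The larger goblet-led cluster held 38.4% of mitochondria-rich and 9.83% of low-mitochondria epithelial-like barcodes. Its mitochondria-rich members had a median of 348 nuclear UMIs, so each weighed little in the sums. Tff3 and Zg16, which lead the goblet cluster of the mitochondria-rich barcodes, had -0.03 and -0.26 and were not called. A second goblet-led cluster, with Spink4, Muc2 and Agr2 leading, held 0.161% of the mitochondria-rich and 6.66% of the low-mitochondria epithelial-like barcodes, and its part in these differences was not tested. The direction of the list's median turned with the clusters compared, while that of Agr2 did not. Within the clusters led by absorptive genes (5 libraries) the median of 8 goblet genes was 1.20, with 5 called higher and 2 lower, Agr2 had -2.49 (edgeR adjusted p = 1.09e-08), and Muc2 was higher by 1.29 (edgeR adjusted p = 0.00165), while at matched depth Muc2 had -2.16 (edgeR adjusted p = 0.0605).

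Genes of stem or dividing epithelium were lower in 9 of 10 and higher in none, against 26.1% and 28.2% of all genes. Mcm6, a replication helicase subunit, had -2.36, Smoc2 -1.84 and Mki67 -1.18. Lgr5, the marker of crypt stem cells, had -0.30 and was not called. The enteroendocrine genes Pyy, Chgb, Chga and Gcg, which encode gut hormones or granule proteins, were lower, from -3.63 to -2.55, and they lead a cluster of 22 barcodes of which 1 was mitochondria-rich. The tuft genes Dclk1, Trpm5 and Avil were higher by 2.60, 2.57 and 2.52. Trpm5 stood at 5.62, 370.4 and 138 CPM in mitochondria-rich barcodes of pGF mice at days 0, 2 and 7 and at 41.7, 463 and 106 CPM in SPF mice, against 0, 26.3 and 151 CPM and 0, 32.8 and 160.5 CPM in low-mitochondria ones. Trpm5 was therefore higher in 4 of 6 libraries and lower in both day 7 libraries, and without the library block its adjusted p in edgeR was 0.192. At matched depth its log2 fold change was 0.44 (edgeR adjusted p = 0.534). That fit held no day 0 library and kept both day 7 libraries, and the part of this choice was not tested. The calls of Dclk1 and Avil were lost in the same settings, with 1.96 and 2.15 without the block (edgeR adjusted p = 0.139 and 0.0688) and 0.58 and 0.49 at matched depth (edgeR adjusted p = 0.415 and 0.429).

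Type I interferon response genes were higher in 7 of 10 and lower in none, against 28.2% and 26.1% of all genes, with a median of 1.16. Irf7, a transcription factor of that response, stood at 266, 262 and 157 CPM in mitochondria-rich barcodes of pGF mice and at 262.5, 214 and 179.6 CPM in SPF mice, against 56.9, 27.1 and 43.5 CPM and 49.3, 38.1 and 132 CPM in low-mitochondria ones (log2 fold change 2.31, edgeR adjusted p = 1.44e-05). Oasl1 was higher by 2.63 and Stat2 by 1.51, while Bst2 had -0.33 and was not called. Glycolysis genes were higher in 8 of 14 and lower in 2, with Hk2 at 1.02, Slc2a1, the glucose transporter, at 0.97 and Pgam1 and Pgk1, enzymes of the lower pathway, at -0.60 and -0.53. Of all genes 28.2% were higher and 26.1% lower, against which all list counts of epithelial-like barcodes are to be read. Mitophagy and mitochondrial stress genes were higher in 7 of 16 and lower in 3 (median 0.12), with the receptors Optn and Bnip3 at 1.87 and 1.24 and the chaperone Hspa9 at -1.08. Apoptosis and p53 genes were higher in 5 of 15 and lower in 2, and immediate-early genes higher in 3 of 18 and lower in 5, and nothing is read from these counts about the lists. Genes of the integrated stress response were higher in 2 of 9 and lower in 4, with a median of -0.64 that turned to 0.07 at the 20% limit, to 0.05 against a low set of at most 5%, to 0.27 at matched depth, where 1 gene was tested, and to 0.16 without SPF day 2 and 0.03 without pGF day 2. Genes of secretion through the endoplasmic reticulum were higher in 1 of 16 and lower in 12. The abundant cytosolic messages were higher in 1 of 15 and lower in 6, with a median of -0.13, from Ppia at -1.46 to Coro1a, an actin-binding protein of leukocytes, at 1.30.

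Of the 14 markers of the class itself 3 were higher, Vil1, Phgr1 and Krt20, at 0.85, 1.31 and 1.18, 1 was lower, Muc2, and 10 were not called, among them Epcam at -0.03 (edgeR adjusted p = 0.879) and Krt8 at 0.05 (edgeR adjusted p = 0.771). Together they took 2.62% to 4.90% of nuclear UMIs in mitochondria-rich and 2.44% to 4.81% in low-mitochondria barcodes of the libraries. Markers of T or NK cells were higher in 9 of the 10 that could be tested, of 15 listed, against 28.2% of all genes. Cd3e had 1.62 and Nkg7 1.65. Summed over each library, markers of other classes took 0.0880% to 0.770% of nuclear UMIs in mitochondria-rich and 0.0529% to 0.671% in low-mitochondria epithelial-like barcodes. The part of these transcripts in the gene differences was not tested.

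Monocyte or macrophage-like barcodes could be compared in 4 libraries, pGF day 0 and the 3 of SPF mice. Of the 369 mitochondria-rich ones 221 lay in a cluster led by Apoe, H2-Ab1 and C1qb, and 148 in a cluster of 2067 barcodes led by Saa3, Cxcl2 and Il1b, genes of inflammation. Of 6824 genes tested 564 (8.26%) were higher and 809 (11.9%) lower. Without the SPF day 7 library these counts were 129 and 232, with a limit of 20% for the mitochondria-rich set 31 and 101, and without the library block 0 and 0 (674 and 874 at an unadjusted p under 0.05 in edgeR). Without scaling by trimmed means (TMM) the split became 1167 higher and 317 lower, as the median of all genes moved to 0.34, against -0.07 with it.

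Malat1 stood at 33464 CPM in the mitochondria-rich monocyte or macrophage-like barcodes of pGF day 0 and at 55506, 63110 and 28482 CPM in those of SPF days 0, 2 and 7, against 6436.5 CPM and 7236, 16032 and 4040 CPM in low-mitochondria ones. The 2 sets did not overlap (log2 fold change 2.09 ± 0.25, SE; edgeR adjusted p = 3.41e-06), although with a limit of 20% its adjusted p in edgeR was 0.072 and without the block 0.081. All 4 nuclear-retained RNAs tested were higher, from Kcnq1ot1 at 1.19 to Malat1. Ribosomal protein genes were lower in 80 of 87 and higher in 1, with a median of -1.10, and the 15 abundant cytosolic messages, Actb and Eef1a1 among them, were all lower, with a median of -1.11. Of all genes tested in this class 8.26% were higher and 11.9% lower. Without TMM scaling the medians were -0.67 in both lists, against 0.34 over all genes. Without the SPF day 7 library 32 ribosomal protein genes and 4 cytosolic messages were called lower in edgeR, and with the 20% limit 2 and 0, with medians of -1.08 and -1.10 and of -1.14 and -1.04. Respiratory chain genes were lower in 29 of 40 and those of endoplasmic reticulum secretion in 12 of 16.

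The class markers themselves were lower in 8 of 12, against 11.9% of all genes. Lyz2 had -1.47, C1qa -1.23 and Cd14 -1.02, while Csf1r had -0.42 and was not called. Plasma cell markers were lower in 7 of 10, with Mzb1 at -3.22 and Derl3 at -4.07, and Igha stood at 209 to 4832 CPM in mitochondria-rich barcodes over the 4 libraries, against 1554 to 34533 CPM in low-mitochondria ones. Epithelial markers were higher in 6 of 7, against 8.26% of all genes. Car1, a cytosolic carbonic anhydrase of colonocytes, stood at 657 CPM in pGF day 0 and at 159.7, 318 and 429.6 CPM in SPF days 0, 2 and 7, against 18.1 CPM and 19.3, 65.6 and 12.5 CPM (log2 fold change 3.61 ± 0.36, SE; edgeR adjusted p = 1.98e-07). Markers of all other classes together took 0.458% to 0.619% of nuclear UMIs in mitochondria-rich and 1.03% to 1.87% in low-mitochondria barcodes, and doublet scores marked 1.72% to 19.3% and 2.94% to 18.9%. The part of these in the gene differences was not tested.

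T or NK-like barcodes could be compared in the 4 libraries of days 2 and 7, with 37 to 116 mitochondria-rich barcodes in each. Over all libraries the 259 mitochondria-rich ones lay in 4 clusters, with 132, 57, 55 and 15 barcodes, of which the first was led by Xcl1, Ikzf2 and Cd7. Of 8054 genes tested 32 (0.397%) were higher and 15 (0.186%) lower. Without the library block the counts were 0 and 0, with 192 and 240 at an unadjusted p under 0.05 in edgeR, without the pGF day 7 library 17 and 1, and without the pGF day 2 library 18 were higher. Without the SPF day 2 library 34 were lower, and without the SPF day 7 library 6. DESeq2 called 3 lower, and edgeR without TMM scaling called 58 higher and 5 lower.

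The genes higher in mitochondria-rich T or NK-like barcodes were led by epithelial ones. All 10 named by rule, Fabp2, Tff3, Phgr1, Lypd8, Krt19, Zg16, Lgals4, Pigr, Krt8 and Car1, are genes of colon epithelium. Fabp2, a fatty acid binding protein of absorptive cells, stood at 149 and 49.4 CPM in pGF days 2 and 7 and at 60.5 and 69.3 CPM in SPF days 2 and 7, against 15.5 and 0.990 CPM and 7.40 and 1.43 CPM, from 3 to 29 UMIs in each mitochondria-rich sum (log2 fold change 3.76, edgeR adjusted p = 5.59e-10). Of 10 epithelial markers tested 6 were higher and none lower, against 0.397% and 0.186% of all genes. Markers of other classes took 0.179% to 0.331% of nuclear UMIs in mitochondria-rich and 0.0844% to 0.153% in low-mitochondria T or NK-like barcodes, and doublet scores marked 5.88% to 13.5% and 1.63% to 5.82%. The part of these in the differences was not tested.

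Malat1 was higher in the same T or NK-like barcodes, at 18713 and 10306 CPM in pGF days 2 and 7 and 12674 and 9280 CPM in SPF days 2 and 7, against 8693 and 7599 CPM and 9048 and 7282 CPM. The log2 fold change was 0.49 (edgeR adjusted p = 0.0136), and the lowest mitochondria-rich value lay just above the highest low-mitochondria one. The call was lost in edgeR without the SPF day 2 library (adjusted p = 0.0626), the SPF day 7 library (0.143) or the pGF day 7 library (0.331), and without the library block (0.90). Ribosomal protein genes were lower in 1 of 88 and respiratory chain genes in 2 of 40 (Cox6c and Atp5e, at -0.57 and -0.56), with none higher in either list. Of all genes tested in this class 0.397% were higher and 0.186% lower. Of the class's own markers 1 of 13 was lower, the granule protease Gzma, at -0.53, and none of the immediate-early, heat-shock, interferon, glycolysis, apoptosis or mitophagy lists had a gene called in edgeR. In simulated data with a log2 change of 1, the fit recovered 18 of 95 genes in this class and 76 of 98 in epithelial-like sums. The small counts here can therefore not be set against those of epithelial-like barcodes.

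**Figure D5:**
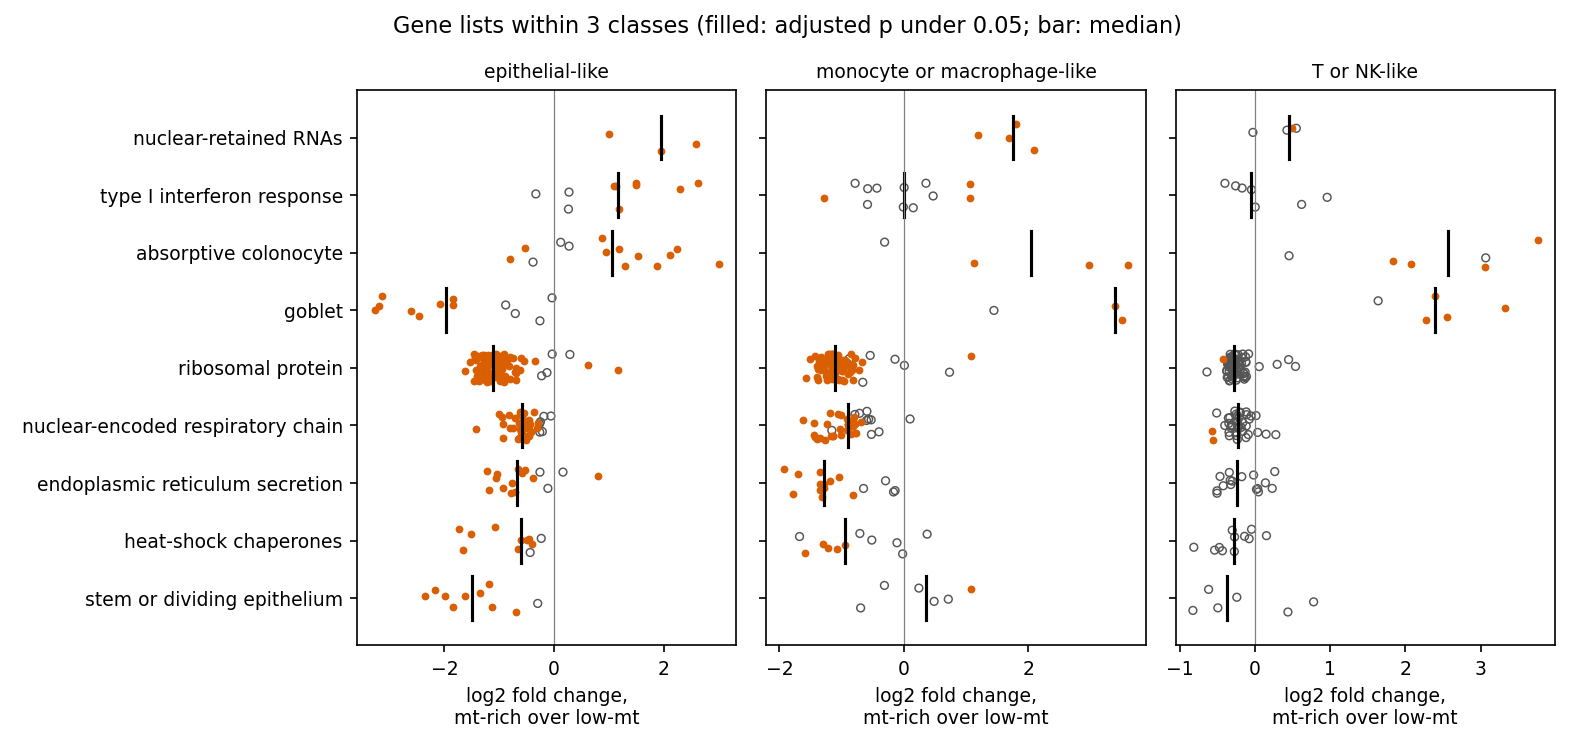
Log2 fold change, mitochondria-rich over low-mitochondria, of each tested member of 9 gene lists (x axis) in epithelial-like, monocyte or macrophage-like and T or NK-like barcodes. Filled points passed an adjusted p of 0.05 in edgeR, open points did not, and bars mark list medians. Ribosomal protein genes have medians of -1.11, -1.10 and -0.29 in the 3 classes, and nuclear-retained RNAs lie above 0 in the first 2.

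Plasma-like barcodes met the limit of 30 barcodes in both sets in 3 libraries, too few for the test set out, and are described only. Malat1 took 9.32% of nuclear UMIs in mitochondria-rich plasma-like barcodes of pGF day 0, against 0.389% in low-mitochondria ones. In SPF mice it took 9.14% and 3.46% at days 0 and 2, against 0.402% and 0.701%. The 12 plasma markers took 6.25% against 13.8% in pGF day 0, and 6.58% and 17.4% against 14.2% and 27.2% in SPF days 0 and 2.

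The way mt- UMIs divided among the 13 mt- genes was not used to choose the barcodes. The genes lie on the mitochondrial chromosome of GRCm38, 12 on its forward strand and mt-Nd6 on the reverse strand. mt-Co1 (chromosome M, 5328 to 6872), the core subunit of cytochrome c oxidase, took the largest share, at 30.1%, 34.1% and 34.6% of mt- UMIs in mitochondria-rich barcodes of pGF mice at days 0, 2 and 7, against 25.1%, 28.3% and 25.5% in low-mitochondria ones. In SPF mice it took 29.5%, 33.2% and 30.8%, against 24.5%, 31.2% and 30.1%. The difference averaged 4.60 percentage points ± 2.95 (SD, n = 6; higher in 6 of 6; exact sign-flip permutation p = 0.03125, adjusted over 13 genes p = 0.058).

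Among the other mt- genes, 6 had a lower share in every library, and none passed 0.05 after adjustment. mt-Nd4l (chromosome M, 9877 to 10173), a complex I subunit, took 3.50% ± 0.73 of mt- UMIs in mitochondria-rich and 4.94% ± 0.76 in low-mitochondria barcodes (SD, n = 6), and mt-Cytb (14145 to 15288), cytochrome b of complex III, took 8.35% ± 1.20 and 10.4% ± 1.46. Both were lower in 6 of 6 libraries, as were mt-Nd2, mt-Nd3, mt-Nd5 and mt-Nd6 (exact permutation p = 0.03125 each, adjusted p = 0.058). The complex I subunits mt-Nd1 and mt-Nd4 were lower in 5 of 6 libraries (exact permutation p = 0.0625 and 0.125), with mt-Nd1 higher in SPF day 7 and mt-Nd4 higher in SPF day 2. In all 7 of the 13 genes stood at the smallest p that 6 pairs allow. The 13 shares divide the same total, so a higher share of mt-Co1 lowers others, and these 7 are not separate findings. The difference of mt-Co1 was also taken within classes. Within epithelial-like barcodes mt-Co1 took 32.8%, 34.0% and 34.1% in the mitochondria-rich set of pGF mice and 31.7%, 36.5% and 29.2% in that of SPF mice, against 30.4%, 28.2% and 28.3% and 28.3%, 32.7% and 30.3%, so it was lower in 1 of 6 libraries. Within T or NK-like barcodes it took 33.4% and 31.7% in pGF days 2 and 7, against 28.7% and 25.8%, and 29.6% and 30.8% in SPF days 2 and 7, against 35.6% and 29.3%, so it was lower in 1 of these 4.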

How the data were processed

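Colon CD45-sorted cells of wild-type mice were profiled in 6 libraries, 1 for each arm and day. The authors deposited raw UMI counts per gene and barcode, made with Cell Ranger 6.1.2 per the file headers, for barcodes already called as cells (32285 genes). The submitters' processing notes also name mm10, R 4.1.3 and Seurat 4.1.1. Barcodes with at least 200 nuclear UMIs were clustered without mt- genes (scanpy 1.11.5, 2000 variable genes without antigen receptor and Y-linked genes, 30 principal components, 20 neighbours, Leiden resolution 1, seed 0). Cluster names went to the class with the highest mean marker score, log2(CPM + 20) minus the median over clusters, if it reached 1, if 3 or more markers were detected and if no other class had more markers among the 10 leading genes. Clusters of low depth with no own marker among those 10 stayed unnamed. 1 cluster led by Retnla, Jchain and Siglech was left unnamed after its genes had been seen. Doublet scores (2 simulated doublets per barcode, marked at 0.8% per 1000 barcodes) removed no barcode in the main result. The members, markers and lists were chosen with earlier results of these data known.

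Summed counts were tested with edgeR 4.0.16 (quasi-likelihood, TMM, filterByExpr, library as block, since both sets come from 1 library) where at least 4 libraries qualified, and with DESeq2 1.42.0 as an alternative. Genes named by rule had an adjusted p under 0.05, at least 50 CPM in the higher set and 1 sign in every library, 10 in each direction, without antigen receptor, haemoglobin or sex-linked marker genes and without provisional (Gm or Rik) symbols. Other genes are list members. The fit was first tested on simulated data. A log2 change of 1 was recovered in 76 of 98 genes in epithelial-like sums. It was recovered in 18 of 95 in T or NK-like and 15 of 89 in monocyte or macrophage-like sums. For a change of 2 the numbers were 92 of 92, 62 of 94 and 58 of 92. Numbers of called genes can therefore not be set against each other between classes. Bounds on shares are exact (Clopper-Pearson, 95%). Free RNA in droplets was not removed, and receptor sequences were not analysed here. Coordinates of mt- genes are from GENCODE for GRCm38.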

Additional observations from a re-analysis of the deposited data

Results flagged for a closer look

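The class ratio of monocyte or macrophage-like barcodes, mitochondria-rich over low-mitochondria, had opposite signs at 2 days. At day 2 its log2 was -2.05 in pGF and -2.0 in SPF mice, and at day 7 it was 0.714 in pGF and 0.616 in SPF mice. With 2 libraries a day the difference was not tested.

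The share of mt- UMIs from mt-Co3, a subunit of cytochrome c oxidase, differed in sign between days, mitochondria-rich minus low-mitochondria. It was -0.269 points in pGF and -0.148 in SPF mice at day 0, 0.141 and 1.26 points at day 2, and -0.654 and -0.744 points at day 7. The difference of mt-Co2, another subunit, was -0.265 points in pGF and -0.046 in SPF mice at day 0, 0.001 and 2.17 points at day 2, and 0.265 and 0.253 points at day 7. Neither difference between days was tested, and that of mt-Co2 in the pGF day 2 library is close to 0. No group has more than 1 library, so no library could be compared with others of its group.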

How the results depend on the processing

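A limit of 20% gave mitochondria-rich shares of 23.1%, 13.3% and 4.74% in pGF and 16.6%, 53.2% and 5.19% in SPF mice, and a minimum of 1000 UMIs gave 18.9%, 16.6% and 4.88% and 16.6%, 48.3% and 5.37%. Of classed mitochondria-rich barcodes at 20%, epithelial-like ones were 88.6% and 57.6% in pGF days 2 and 7 and 40.1%, 90.6% and 44.7% in SPF days 0, 2 and 7. With at least 500 nuclear UMIs they were 45.6% and 74.6% in pGF days 0 and 2 and 84.2% and 13.1% in SPF days 2 and 7, and by markers without clustering 80.4% in SPF day 2. The monocyte or macrophage-like mean log2 ratio reversed to 0.859 at Leiden resolution 2. Epithelial-like, T or NK-like and plasma-like ratios kept their sign under each of 4 alternatives.

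Gene counts higher and lower moved past 1.5 times in these cases. Epithelial-like counts were 0 and 1 at 500 to 3000 nuclear UMIs, where fewer libraries and genes remained. Monocyte or macrophage-like counts were 31 and 101 at the 20% limit, 1167 and 317 without TMM and 260 and 1374 with no filter on low counts. T or NK-like counts were 58 and 5 without TMM, lower ones 145 with no filter and 3 in DESeq2. Without TMM the median of all T or NK-like genes moved to 0.09, against -0.03. With no replicate block edgeR called 0 and 0 in monocyte or macrophage-like (674 and 874 at an unadjusted p under 0.05) and in T or NK-like barcodes (192 and 240), and 2023 and 2016 in epithelial-like barcodes. Leaving out 1 library gave 1874 to 2944 higher and 1780 to 2799 lower in epithelial-like, 129 to 484 and 232 to 755 in monocyte or macrophage-like and 17 to 30 and 1 to 34 in T or NK-like barcodes. Matched depth could not be run for T or NK-like and monocyte or macrophage-like barcodes, the 20% limit for T or NK-like ones, and no gene test for plasma-like ones, as fewer than 4 libraries qualified. The causes were not tested. Restricting epithelial-like barcodes to absorptive clusters, or members to at most 50% mt- UMIs, was chosen after seeing the data.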
